A study of Mus musculus with 17 samples.

Results

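RNA-binding proteins that set the choice of exons, epithelial and muscleblind-type regulators among them, were followed as 10 genes through 17 mouse RNA-seq libraries: Esrp1, Esrp2, Ptbp1, Ptbp2, Mbnl1, Mbnl2, Mbnl3, Celf1, Rbfox2 and Khdrbs3. They were taken by gene symbol, and 10 of 10 were found among the 23891 genes of the files, with 30 of the 32661 RefSeq transcripts. Among the 10 genes, 6 have more than 1 transcript, and Mbnl1 and Rbfox2 each have transcripts from 2 start sites. The level of a gene is the sum over its transcripts of the FPKM that the authors computed. FPKM are fragments per kilobase of transcript, scaled per library with upper-quartile and GC normalization. Levels of different genes can thus be compared per length.

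The libraries came from 4 spermatogonial stem and progenitor cell (SSC) lines, 6 multipotent adult spermatogonial-derived stem cell (MASC) lines, which arise from SSCs in culture, 2 embryonic stem cell (ESC) lines, 2 induced pluripotent stem (iPS) cell lines, 2 haematopoietic stem and progenitor cell (HSC) cultures and 1 mouse embryonic fibroblast (MEF) sample. SSC.1 and SSC.2 carried Oct4-GFP, SSC.3 was C57Bl/6J and SSC.4 was 129mix. MASC.1 and MASC.2 carried Oct4-GFP, MASC.3 and MASC.4 were 129mix, and MASC.5 and MASC.6 carried Gt(ROSA26)Sor-lacZ. ESC.1 carried Oct4-GFP and ESC.2 was 129mix. Both iPS lines and the MEF sample were 129mix, and both HSC cultures were C57Bl/6J. The iPS lines were made by doxycycline induction of the tetO-4F2A cassette in embryonic fibroblasts. SSC, MASC, ESC and iPS lines were all kept on fibroblast feeders, SSC lines in SSC medium and the others in ESC medium, so cell type and medium cannot be told apart. SSCs were plated on gelatin to take feeders away before collection, and HSCs were expanded on E4ORF1-HUVEC endothelial cells and depleted of lineage-positive cells. MASC and ESC lines had been subcloned. Where the labels do not say that libraries came from separate cultures, p-values measure only the spread between these libraries.

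The libraries had a coverage of 1.26 to 3.23 reads per base at 1 FPKM and 10995 to 13181 genes at 1 FPKM or more. The labels were checked against marker genes. All 8 pluripotency markers were at 1 FPKM or more in every MASC, ESC and iPS library. All 10 spermatogonial markers were so in every SSC library, and all 10 blood markers in both HSC libraries. These counts are not specific by themselves. MASC, ESC and iPS libraries had 6 to 8 of the spermatogonial markers at that level, and SSC libraries 4 to 6 of the pluripotency markers. Single markers also went the other way: median Etv5 was lower in SSC than in MASC lines, and Kit was highest in HSC libraries. For each of these lists, the summed FPKM was higher in every library named for it than in any other library. The summed FPKM of 13 fibroblast markers was 7604 in the MEF sample and varied among the others, from 61.8 to 1062 in SSC, from 29.0 to 1252 in MASC and from 83.3 to 447 in ESC lines, from 8.86 to 47.0 in iPS lines, and 8.66 against 587 in HSC.1 and HSC.2. The 5 highest after MEF were MASC.1, SSC.3, HSC.2, SSC.1 and ESC.1, and each count of members called is given with and without these 5; that alternative was chosen after the data had been seen. The MEF sample also had 7 of the 10 blood markers at 1 FPKM or more. Their summed FPKM was 97.8 in MEF, 1237 in HSC.1 and 918 in HSC.2, and at most 20.8 in SSC, MASC, ESC and iPS lines. In bulk RNA, fewer cells of one type and less RNA per cell cannot be told apart.

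The proteins of these genes bind short motifs in the pre-mRNA beside alternative exons, and the same protein can promote an exon or cause it to be skipped depending on where it binds. Esrp1 and Esrp2 are epithelial regulators that are lost when epithelial cells become mesenchymal. Ptbp1 and its neural relative Ptbp2 bind pyrimidine-rich tracts and mostly repress exons, and they also act on each other's transcripts. The muscleblind proteins favour exon choices of differentiated cells and have been described as repressors of the splicing pattern of ESCs, Celf1 often opposes them, Rbfox2 binds GCATG, and Khdrbs3 (Slm2) belongs to the STAR family of RNA-binding proteins and is abundant in testis and brain.

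A pair of alternative exons in the members' own transcripts, of Mbnl2 and Ptbp1, is shown first. The share of the Mbnl2 transcript with its exon was lower in HSC and MEF libraries than in all others. Between SSC and MASC lines the shares overlapped for both genes, and neither difference passed a test. The transcripts of Mbnl2 differ by 54 bases, and the longer one, NM_175341, holds exon 6 of 9 (chr14:120794934-120794987, plus strand, mm9, inside the coding sequence), which NM_207515 lacks; both were matched to GENCODE vM1 transcripts of the same ends and length. Transcripts NM_001077363 and NM_008956 of Ptbp1 differ by 78 bases, and GENCODE vM1 has one exon of that length that other Ptbp1 transcripts skip (chr10:79322862-79322939, plus strand, mm9, inside the coding sequence). That pairing rests on the length. The exon is in capitals and the 40 intron bases on each side are in lower case.
Mbnl2 exon: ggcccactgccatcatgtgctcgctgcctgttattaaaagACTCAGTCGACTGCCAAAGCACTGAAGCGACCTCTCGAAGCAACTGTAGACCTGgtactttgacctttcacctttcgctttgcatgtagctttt
Ptbp1 exon: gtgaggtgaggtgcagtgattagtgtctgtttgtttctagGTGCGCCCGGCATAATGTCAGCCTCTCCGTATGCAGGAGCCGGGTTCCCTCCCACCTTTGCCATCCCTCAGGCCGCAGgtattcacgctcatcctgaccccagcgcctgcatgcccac
The letters GCATG, bound by Rbfox proteins, were searched on the transcribed strand in the 100 intron bases on each side of each exon, and each exon has 1 match downstream and none upstream. A match on either side, upstream or downstream, is held by 18.1% of 177725 internal exons of protein-coding GENCODE transcripts. CTCTCT, a Ptbp1 motif, has no match beside either exon (15.7% of internal exons have one). GCTTGC, a muscleblind motif, has 1 match upstream of the Mbnl2 exon and none beside the Ptbp1 exon (5.40% of internal exons have one on either side).

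The 200 bases before the start sites of Rbfox2 and Mbnl1 are shown with each CG dinucleotide in capitals. The shares of these start sites differed between some cell types, as described further on. Rbfox2, on the minus strand of chromosome 15, has an upstream start at base 77137483 and a downstream start at base 76984242, 153241 bases apart. Mbnl1, on the plus strand of chromosome 3, has an upstream start at base 60276752 and a downstream start at base 60305174, 28422 bases apart (mm9).
Rbfox2 upstream start (chr15:77137484-77137683): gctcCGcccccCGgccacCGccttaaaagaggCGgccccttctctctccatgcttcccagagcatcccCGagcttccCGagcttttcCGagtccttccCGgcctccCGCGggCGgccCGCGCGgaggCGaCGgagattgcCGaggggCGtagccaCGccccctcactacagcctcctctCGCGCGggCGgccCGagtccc
Rbfox2 downstream start (chr15:76984243-76984442): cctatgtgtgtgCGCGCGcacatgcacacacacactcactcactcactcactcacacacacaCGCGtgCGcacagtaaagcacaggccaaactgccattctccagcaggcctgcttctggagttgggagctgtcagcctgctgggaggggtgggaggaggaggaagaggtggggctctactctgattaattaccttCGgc
Mbnl1 upstream start (chr3:60276552-60276751): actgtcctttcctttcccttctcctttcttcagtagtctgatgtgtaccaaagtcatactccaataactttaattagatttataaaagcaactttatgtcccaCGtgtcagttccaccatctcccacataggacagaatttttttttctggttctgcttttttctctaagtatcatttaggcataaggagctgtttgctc
Mbnl1 downstream start (chr3:60304974-60305173): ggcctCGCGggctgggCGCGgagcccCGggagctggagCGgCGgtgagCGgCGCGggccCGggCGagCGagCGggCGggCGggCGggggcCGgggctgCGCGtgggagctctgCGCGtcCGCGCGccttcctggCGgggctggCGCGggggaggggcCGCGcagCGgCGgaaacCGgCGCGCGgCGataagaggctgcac
The upstream start of Rbfox2 had 24 CG dinucleotides in this window, more than 89.6% of 45975 start sites of protein-coding GENCODE transcripts, and its downstream start had 7, more than 45.9% of them. For Mbnl1 the order was the other way, with 1 at the upstream start (more than 7.75%) and 37 at the downstream start (more than 99.3%).

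The epithelial regulator Esrp1 was present at 8.57 FPKM or more in every SSC, MASC, ESC and iPS library and at most 0.0358 FPKM in HSC and MEF libraries. It measured 24.4, 52.9, 16.6 and 21.6 FPKM in SSC.1 to SSC.4, and 8.57, 14.5, 17.2, 20.4, 22.6 and 26.1 FPKM in MASC.1 to MASC.6. The ranges overlapped, with SSC.2 above every MASC line. ESC lines had 19.9 and 10.3 FPKM and iPS lines 17.2 and 15.9 FPKM, whereas HSC.1, HSC.2 and MEF had 0.0162, 0.0358 and 0.0107 FPKM. HSC and MEF libraries thus lay far below all the others. On the log2(FPKM + 1) scale used for all differences below, MASC lines were 0.57 lower than SSC lines (SE 0.38, 95% interval from -1.42 to 0.28, adjusted p = 0.289), which did not pass the threshold of 0.05. The difference was -1.60 within the Oct4-GFP lines and -0.20 within the 129mix lines.

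Esrp2, the paralogue of Esrp1, had a lower level than Esrp1 in every SSC, MASC, ESC and iPS library. SSC lines had 1.43, 2.43, 2.08 and 2.60 FPKM and MASC lines 2.20, 2.90, 5.81, 5.15, 3.47 and 3.94 FPKM, so that 5 of 6 MASC lines lay above the SSC range. The mean difference was 0.62 (SE 0.22, adjusted p = 0.0534) and missed the threshold. It passed under 6 alternatives, among them the filter on low values and leaving out MASC.1 (0.73, adjusted p = 0.0184). Esrp2 measured 0.0749 FPKM in HSC.1, 0.537 in HSC.2 and 1.30 in MEF. The ratio of Esrp2 to Esrp1 FPKM was 0.0459 to 0.125 in SSC lines and 0.151 to 0.338 in MASC lines, so the ranges did not overlap. The ratio was 0.152 to 0.189 in ESC and 0.164 to 0.281 in iPS lines. In MEF, with Esrp1 near 0, it was 122. Each gene by itself overlapped between SSC and MASC lines. How often ratios of other gene pairs do not overlap was not computed, so the ratio is given as a description.

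Ptbp1 was the most abundant of the 10 genes in every library and was higher in MASC than in SSC lines. SSC lines had 173, 136, 204 and 135 FPKM (162 ± 33.0, SD, n = 4) and MASC lines 299, 308, 243, 288, 292 and 203 FPKM (272 ± 40.7, SD, n = 6). MASC.1 to MASC.5 lay above all SSC lines, and MASC.6 was just under SSC.3. The difference was 0.75 (SE 0.15, 95% interval from 0.41 to 1.09, adjusted p = 0.00332), and it was 0.98 within Oct4-GFP and 0.96 within 129mix lines. It was 0.95 when the 5 libraries of highest fibroblast marker sum were left out.

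Ptbp2, the neural paralogue, measured 12.3, 23.8, 14.3 and 28.8 FPKM in SSC lines and 9.94, 10.3, 14.1, 16.8, 17.2 and 18.7 FPKM in MASC lines, with overlapping ranges (difference -0.38, SE 0.27, adjusted p = 0.334). With strain as a block the difference was -0.76 (adjusted p = 0.0300). The ratio of Ptbp2 to Ptbp1 FPKM was 0.0700 to 0.213 in SSC lines, 0.0332 to 0.0921 in MASC lines and 0.0359 to 0.0488 in ESC lines.

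None of the muscleblind genes passed the test between MASC and SSC lines. Mbnl1 measured 3.60, 1.97, 5.42 and 4.51 FPKM in SSC lines and 1.31 to 5.12 FPKM in MASC lines (difference -0.05, SE 0.31, adjusted p = 1.00), and quantile normalization turned the sign of this small difference (0.26). Mbnl2 measured 11.5, 4.81, 13.8 and 29.2 FPKM in SSC lines, a wide spread set by SSC.2 and SSC.4, and 7.89 to 17.7 FPKM in MASC lines (difference -0.03, SE 0.42, adjusted p = 1.00; 0.20 under quantile normalization). The 95% interval for Mbnl2 ran from -0.98 to 0.93, so differences of this size in either direction were not detectable. Mbnl3, an X-linked gene, had 0.883, 3.47, 1.34 and 1.91 FPKM in SSC and 0.644 to 1.14 FPKM in MASC lines (difference -0.54, SE 0.20, adjusted p = 0.0679). It passed without SSC.1 (-0.72, adjusted p = 0.0148) and without the 5 libraries of highest fibroblast marker sum (-0.91, adjusted p = 0.0173).

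Celf1, the CUG-binding protein that often opposes muscleblind proteins, measured 28.1, 50.8, 29.9 and 37.1 FPKM in SSC lines and 42.7, 44.5, 55.1, 64.4, 62.7 and 54.4 FPKM in MASC lines. SSC.2 lay inside the MASC range and the other SSC lines below it. The difference was 0.57 (SE 0.18, adjusted p = 0.0337), higher in MASC lines. This call was lost when any of 7 single lines was left out (MASC.3, MASC.4, MASC.5, MASC.6, SSC.1, SSC.3 or SSC.4, with adjusted p up to 0.0980), without the 5 libraries of highest fibroblast marker sum (0.35, adjusted p = 0.220), with strain as a block (0.38, adjusted p = 0.224) and under quantile normalization. It was 0.20 within Oct4-GFP and 0.67 within 129mix lines.

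Khdrbs3 was lower in MASC lines, and it was the member whose SSC and MASC libraries did not overlap. SSC lines had 19.4, 26.9, 18.6 and 25.8 FPKM (22.7 ± 4.31, SD, n = 4), and MASC lines 11.9, 14.1, 12.3, 13.2, 13.8 and 13.1 FPKM (13.1 ± 0.866, SD, n = 6). Not overlapping was seen for 29.5% of all genes in this comparison. The difference was -0.73 (SE 0.11, adjusted p = 0.000592), with -0.77 within Oct4-GFP and -0.96 within 129mix lines. MEF had 12.4 FPKM, inside the MASC range, and without the 5 libraries of highest fibroblast marker sum the difference was -0.94. In a fit over all 17 libraries the call was lost.

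Rbfox2 had overlapping summed levels in both cell types, 24.0, 20.7, 21.5 and 24.4 FPKM in SSC and 28.3, 20.9, 23.0, 24.4, 24.3 and 20.4 FPKM in MASC lines (difference 0.05, SE 0.10, adjusted p = 0.801, 95% interval from -0.18 to 0.28). Its transcripts differed, as described further on.

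In all, 3 of the 10 members passed the test between MASC and SSC lines, 2 higher and 1 lower, where 36.4% of all 23891 genes did, 13.6% higher and 22.8% lower. Among the 15387 genes with at least 1 FPKM in at least 2 libraries, which all 10 members passed, 52.7% of genes and 5 of the 10 members were called. Read against these shares, the count of members called does not set them apart from other genes. The median difference over the members was -0.04, beside -0.01 over all genes. Without the 5 libraries of highest fibroblast marker sum 3 members were called, with Mbnl3 in place of Celf1.

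**Figure D1:**
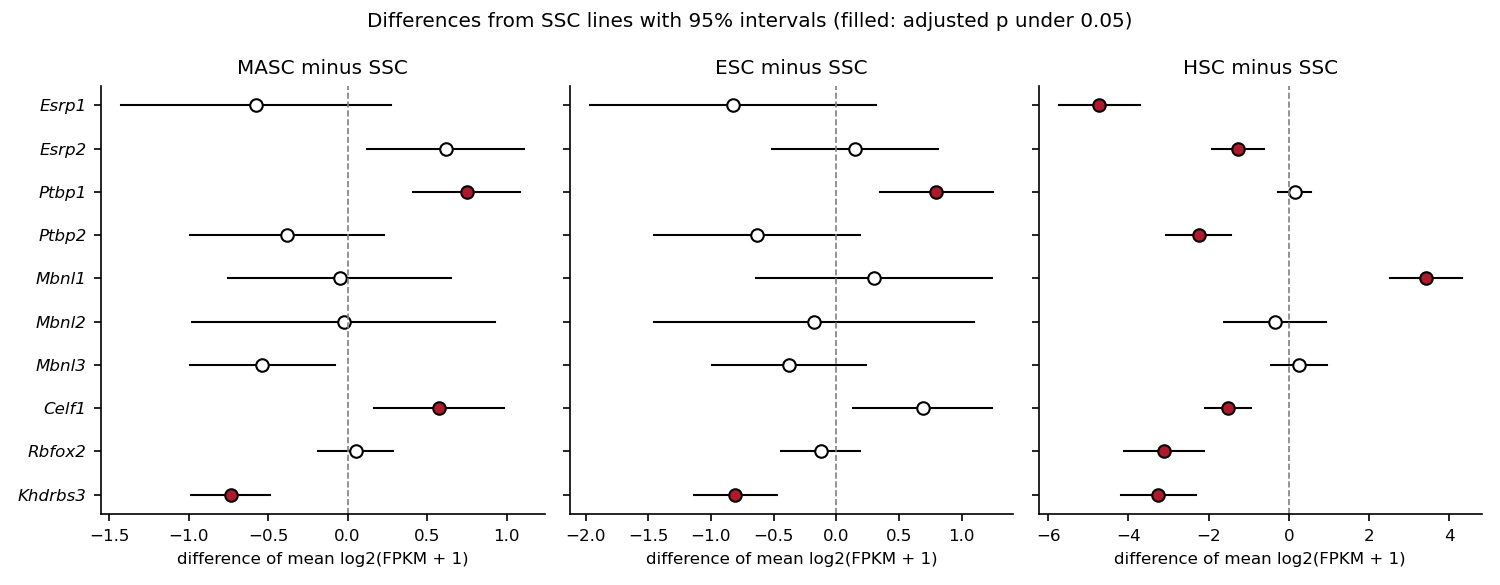
Difference of mean log2(FPKM + 1) of each of the 10 genes in MASC, ESC and HSC relative to SSC libraries, with 95% confidence intervals from limma; filled points have an adjusted p under 0.05. Ptbp1 lies to the right and Khdrbs3 to the left of 0 in both MASC and ESC lines, and Esrp1 and Mbnl1 lie farthest from 0 in HSC libraries.

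ESC lines, a pluripotent reference, were compared with the same SSC lines. ESC lines had 271 and 287 FPKM of Ptbp1, above all SSC lines (difference 0.80, SE 0.20, adjusted p = 0.0159), and 11.3 and 13.5 FPKM of Khdrbs3, below all SSC lines (difference -0.80, SE 0.15, adjusted p = 0.00312). Celf1 measured 51.4 and 65.0 FPKM in ESC lines, also above all SSC lines, but its difference of 0.69 missed the threshold (SE 0.25, adjusted p = 0.0671). Thus 2 of 10 members were called between ESC and SSC lines, 1 higher and 1 lower, beside 26.7% of all genes (9.45% higher and 17.3% lower). The groups did not overlap for 3 members, beside 40.6% of all genes. Without the 5 libraries of highest fibroblast marker sum the count was 2 as well. The Ptbp1 call was lost without either ESC library, and then Khdrbs3 alone of the members was called. The ESC and MASC comparisons share the SSC lines, so these values are not independent of those given for MASC lines. Between MASC and ESC lines none of the 10 members passed (limma; none at an unadjusted p under 0.05 and none without the 5 libraries of highest fibroblast marker sum), beside 0.0377% of all genes, and the groups overlapped for every member (5.75% of all genes did not overlap). With 2 ESC lines the intervals were wide (for Esrp1 from -0.82 to 1.33), so a p that misses the threshold does not show equal levels.

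In iPS lines Ptbp1 was 195 and 186 FPKM, below both ESC lines, with a difference of -0.55 (SE 0.21, adjusted p = 0.476). Mbnl1 was 1.33 and 1.68 FPKM, below both ESC lines and all SSC lines (iPS minus ESC -1.21, SE 0.47, adjusted p = 0.482). None of the 10 members passed in iPS against ESC lines, beside 0.322% of all genes, and 2 of them had an unadjusted p under 0.05 (limma). Without the 5 libraries of highest fibroblast marker sum none passed either. The groups did not overlap for 4 members, beside 38.9% of all genes. In iPS against SSC lines none passed either (limma, with 1, Mbnl1, at an unadjusted p under 0.05), beside 28.9% of all genes. There 4 members did not overlap, beside 45.9%. The ESC and iPS tests came from different fits. Khdrbs3 had a difference of -0.80 (SE 0.15) for ESC minus SSC lines in the fit without HSC libraries. For iPS minus SSC lines, in the fit with them, it was -0.67 (SE 0.43). With HSC.1 or with HSC.2 left out 2 members passed. Without the 5 libraries of highest fibroblast marker sum, which takes away SSC.1 and SSC.3 as well as HSC.2, 3 members passed between iPS and SSC lines, Khdrbs3 (-0.90), Ptbp2 (-1.12) and Rbfox2 (-0.39), all lower in iPS lines.

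**Figure D2:**
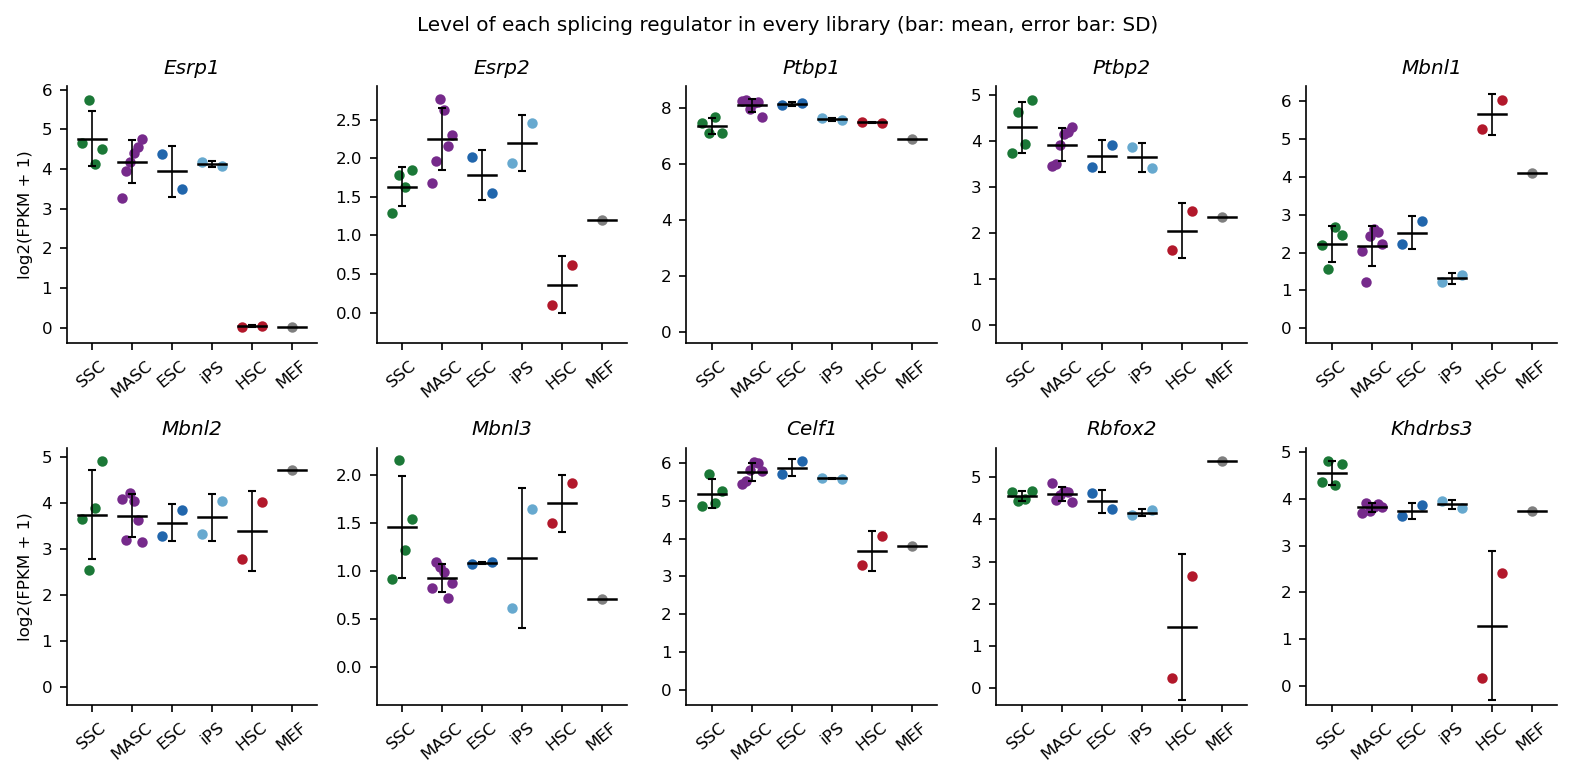
Level of each gene as log2(FPKM + 1) in every library, by cell type; points are libraries, bars are means and error bars are SD (none for the single MEF sample). Esrp1 is near 0 in HSC and MEF, Mbnl1 is highest in HSC, and the 2 HSC libraries lie far apart for Rbfox2 and Khdrbs3.

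The blood cultures had more Mbnl1 and less Esrp1, Esrp2, Ptbp2, Celf1, Rbfox2 and Khdrbs3 than SSC lines. In HSC against SSC libraries 7 of 10 members passed, 6 lower and 1 higher, beside 38.8% of all genes (24.5% lower and 14.3% higher), and against MASC lines 8 passed, 7 lower and 1 higher, beside 36.9% (20.4% lower and 16.6% higher). Among genes at 1 FPKM or more in 2 or more libraries the shares called were 56.2% and 54.2%. The groups did not overlap for 7 members against SSC lines, beside 45.7% of all genes, and for 9 against MASC lines, beside 45.0%. Without the 5 libraries of highest fibroblast marker sum, which leaves HSC.1 as the single HSC library and assumes that it varies like the other groups, 7 members passed in each comparison. Strain was not balanced, since both HSC cultures were C57Bl/6J and among the compared lines SSC.3 alone was. With strain as a block, 3 calls were lost: Esrp2 against SSC lines (-1.26, adjusted p = 0.0555), Ptbp2 against MASC lines (-1.12, adjusted p = 0.139) and Khdrbs3 against MASC lines (-2.14, adjusted p = 0.104).

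Mbnl1 was the member that rose, from at most 5.42 FPKM in SSC lines to 37.6 FPKM in HSC.1 and 64.7 FPKM in HSC.2 (difference 3.42, SE 0.41, adjusted p = 3.6e-05). MEF had 16.1 FPKM, between the HSC cultures and the rest, and this sample also held blood marker RNA. Mbnl2 measured 5.88 and 15.2 FPKM and Mbnl3 1.82 and 2.77 FPKM in HSC libraries, inside or near the range of the stem cell lines, and neither passed against SSC lines (differences -0.35 and 0.25). The summed muscleblind level was 45.3 and 82.6 FPKM in HSC libraries and 42.3 in MEF, against 10.2 to 35.6 FPKM in SSC, 10.6 to 23.2 in MASC, 13.5 to 20.7 in ESC and 10.9 to 19.4 in iPS lines. Mbnl1 made up 83.0% and 78.3% of this sum in HSC.1 and HSC.2 and 38.1% in MEF. In SSC, MASC, ESC and iPS lines Mbnl2 was the main muscleblind gene, with 46.9% to 82.9% of the sum and Mbnl1 with 8.63% to 29.6%.

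**Figure D3:**
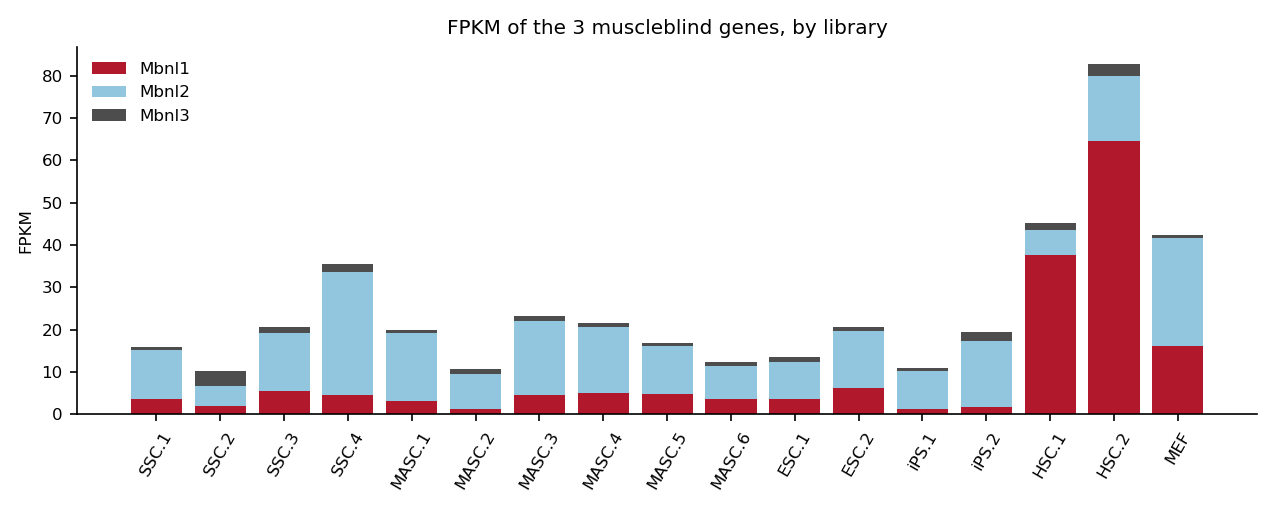
FPKM of Mbnl1, Mbnl2 and Mbnl3 stacked for each library. Mbnl2 is the larger part in SSC, MASC, ESC, iPS and MEF libraries, and Mbnl1 makes up 83.0% and 78.3% of the sum in HSC.1 and HSC.2.

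The HSC minus SSC difference of Esrp1 was -4.73 (SE 0.46, adjusted p = 7.3e-06) and that of Esrp2 -1.27 (SE 0.30, adjusted p = 0.00498; without HSC.1 the Esrp2 difference was -1.01, adjusted p = 0.0675). Ptbp2 measured 2.10 and 4.53 FPKM (difference -2.25, SE 0.37, adjusted p = 0.000463), and Celf1 8.86 and 15.6 FPKM (difference -1.51, SE 0.26, adjusted p = 0.000615). Ptbp1, at 179 and 174 FPKM, lay within the SSC range and below all MASC lines; the difference from MASC lines was -0.61 (adjusted p = 0.0160) and was no longer called with either HSC library left out.

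Rbfox2 and Khdrbs3 were lower in HSC libraries too, by amounts that differed widely between HSC.1 and HSC.2. Rbfox2 measured 0.172 FPKM in HSC.1 and 5.35 FPKM in HSC.2, and Khdrbs3 0.126 and 4.34 FPKM. The difference from SSC lines was -4.33 for Rbfox2 and -4.37 for Khdrbs3 without HSC.2, and -1.89 and -2.13 without HSC.1. Each of these fits holds 1 HSC library, so only the size of the difference is given. The fibroblast markers moved with these values: 13 of 13 were at 1 FPKM or more in HSC.2 and 2 of 13 in HSC.1, and MEF had 40.8 FPKM of Rbfox2 and 12.4 FPKM of Khdrbs3. Their part in the difference between the HSC libraries was not tested.

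The MEF sample, from the cell type that iPS lines are made of, had no replicate and gets no test. Relative to it, the mean of the iPS lines was higher by 1 or more on the log2 scale for Esrp1 (4.12), Celf1 (1.79) and Ptbp2 (1.29) and lower by 1 or more for Mbnl1 (-2.78), Rbfox2 (-1.22) and Mbnl2 (-1.04). These are 6 of the 10 members, where 29.5% of all genes lay past the same difference. A gene under 1 FPKM in the MEF and iPS libraries cannot reach that difference, and all 10 members passed the filter on low values. The share among genes passing that filter was not computed here, so the count is not read as a result about the members.

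The summed level of Rbfox2 was made up of different transcripts in SSC and MASC lines. The downstream start gave 0.696, 1.41, 0.470 and 1.74 FPKM in SSC lines, or 2.19% to 7.14% of the gene's sum. In MASC lines it gave 10.7, 6.79, 14.6, 17.1, 12.3 and 10.9 FPKM, or 32.5% to 70.1%. ESC lines had 33.8% and 39.7%, iPS lines 51.9% and 60.8%, and MEF 78.6%. The upstream start went the other way, from 23.3, 19.3, 21.0 and 22.6 FPKM in SSC lines to between 7.29 and 17.6 FPKM in MASC lines (11.5 ± 3.86, SD, n = 6). SSC and MASC lines did not overlap for either start. The share of all start sites that do not overlap was not computed, and 29.5% of all genes did not overlap in summed level. The start sites were looked at after the values had been seen, so they are given as a description without a test. A planned test took the most abundant transcript of the SSC, MASC and ESC lines alone, NM_001110827 from the upstream start. By limma it gave a difference of -1.28 (adjusted p = 0.000578), where the summed gene gave 0.05. This transcript was picked by its mean over the lines tested, and its mean was 11.7 FPKM in SSC and 4.28 in MASC lines. NM_053104, from the same start, overlapped (6.44 to 12.1 FPKM in SSC and 3.91 to 11.7 in MASC lines). The p-value is thus no separate support for a change of start.

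MEF RNA carries the downstream start as well, at 32.0 FPKM. SSC.3, with a fibroblast marker sum of 1062, had the lowest downstream level of all SSC lines (0.470 FPKM), and MASC.5, with the lowest sum of the MASC lines (29.0), had 12.3 FPKM. One transcript of the downstream start, NM_001286417, which at 4587 bases is the shortest of the 9, was at 16.5 FPKM in MEF, 5.56 in MASC.1, 5.63 in MASC.2, 1.92 in ESC.1 and 1.19 in HSC.2, and at most 0.0696 FPKM in the other 12 libraries. MASC.1, MASC.2 and ESC.1 carry Oct4-GFP, but so do SSC.1 and SSC.2, which are among the 12, and the MEF sample is 129mix. Their fibroblast marker sums were 1252, 166 and 447, but SSC.3 and SSC.1, with sums of 1062 and 484, are among the 12 as well. The part of strain and of fibroblast RNA in these values was not tested.

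The upstream start of Mbnl1 was seen in HSC and MEF libraries. It gave 17.7 and 27.1 FPKM in HSC.1 and HSC.2 and 4.10 FPKM in MEF, or 47.1%, 41.9% and 25.5% of the gene's sum. In the remaining libraries it gave at most 0.0751 FPKM. The MEF sample had 7 of 10 blood markers at 1 FPKM or more, and the part of blood-cell RNA in its Mbnl1 values was not tested. The downstream start rose in HSC libraries as well, to 19.9 and 37.5 FPKM, from at most 6.14 FPKM in the SSC, MASC, ESC and iPS lines.

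**Figure D4:**
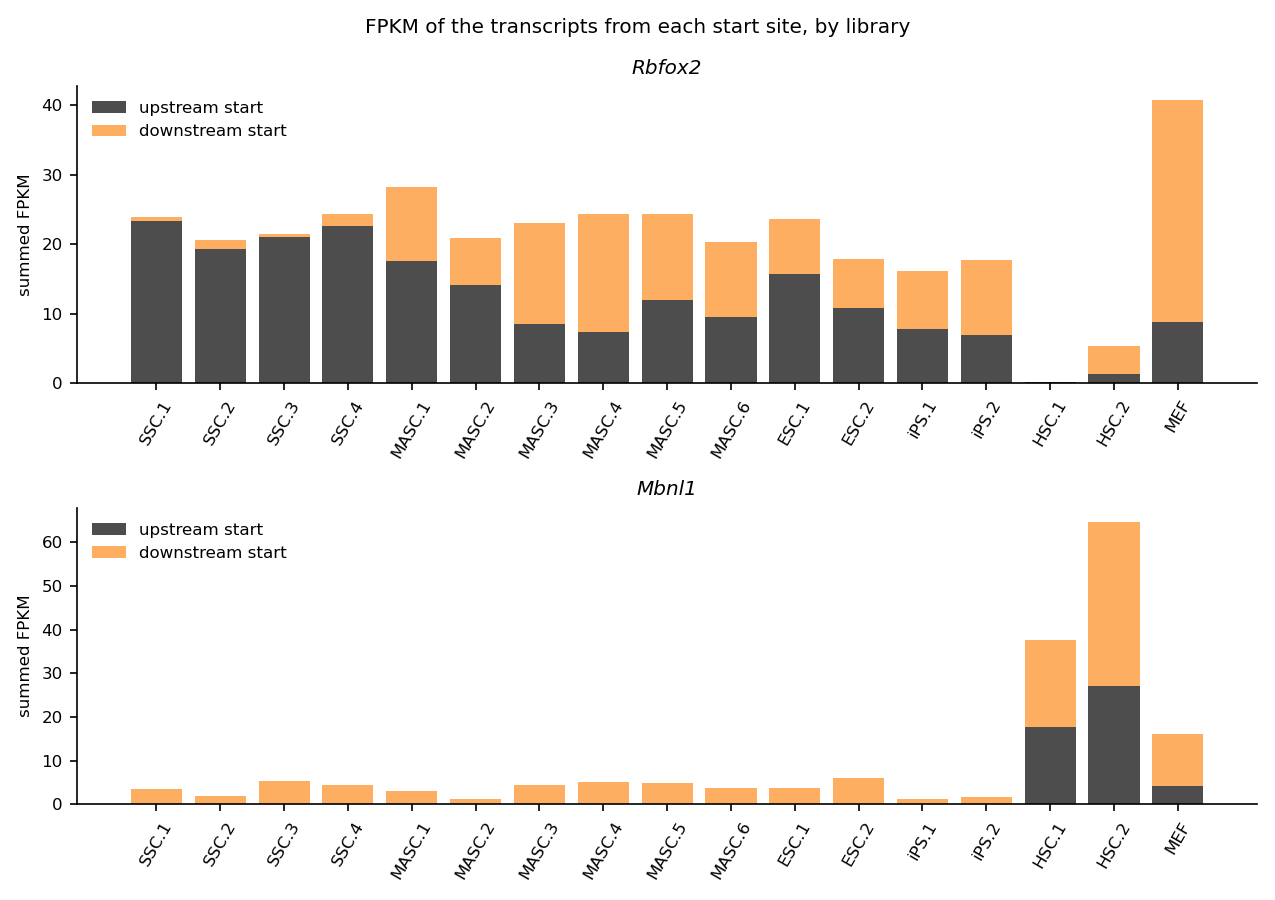
Summed FPKM of the transcripts from each of the 2 start sites of Rbfox2 (top) and Mbnl1 (bottom) in every library. The downstream start of Rbfox2 is 2.19% to 7.14% of the sum in SSC and 32.5% to 70.1% in MASC lines, and the upstream start of Mbnl1 is seen in HSC and MEF libraries.

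Transcript use within the members was compared between MASC and SSC lines by the share of each gene's main transcript. An exact two-sided permutation test over lines was run for the 6 genes with more than 1 transcript (smallest p that 6 against 4 allows here, 0.00952). Such a share is not a measure of 1 exon. Mbnl1 and Rbfox2 have transcripts from 2 start sites, and the Celf1 transcripts are 4685 to 7813 bases long. Cufflinks divides reads among transcripts that share most of their bases, so these shares are estimates. For these tests the main transcript is that of highest mean FPKM over the SSC and MASC lines. The main transcript of Celf1, NM_198683, made up 48.4%, 41.6%, 46.9% and 57.7% of the gene in SSC lines and 56.9%, 68.3%, 66.2%, 60.2%, 62.8% and 61.7% in MASC lines. Its mean share was 14.0 percentage points higher in MASC lines (exact permutation p = 0.0190, 0.114 after Benjamini-Hochberg adjustment over the 6 tests), with MASC.1 just under SSC.4 and the other MASC lines above every SSC line. In HSC.1 and HSC.2 its share was 27.8% and 0.935%. The other 5 had raw p-values from 0.0667 (Esrp1, NM_194055, mean share 6.05 points higher in MASC lines, 0.200 adjusted) to 0.962 (Mbnl2). For Rbfox2 the share of NM_053104 was 31.2% to 49.8% in SSC and 16.02% to 46.7% in MASC lines, with exact permutation p = 0.152 (0.229 adjusted).

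For Mbnl2, the transcript with the 54-base exon printed above made up 85.2%, 48.4%, 81.2% and 71.8% of the gene in SSC and 63.0% to 79.3% in MASC lines, and 69.3% and 73.9% in ESC and 88.6% and 66.8% in iPS lines. In HSC.1 it was listed at 0.000179 FPKM beside 5.88 FPKM of the transcript without the exon, and in HSC.2 and MEF it made up 22.1% and 14.0%. The HSC and MEF libraries lay below all the others. Muscleblind proteins are known to act on this exon of their own transcripts. Ptbp1's longer transcript, NM_001077363, made up 66.4%, 56.1%, 48.0% and 67.3% in SSC lines, 45.4% to 54.9% in MASC lines, 38.5% and 46.7% in HSC libraries and 64.3% in MEF, and the 8.20 point difference between MASC and SSC lines had a raw exact permutation p of 0.114 (0.229 adjusted).

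**Figure D5:**
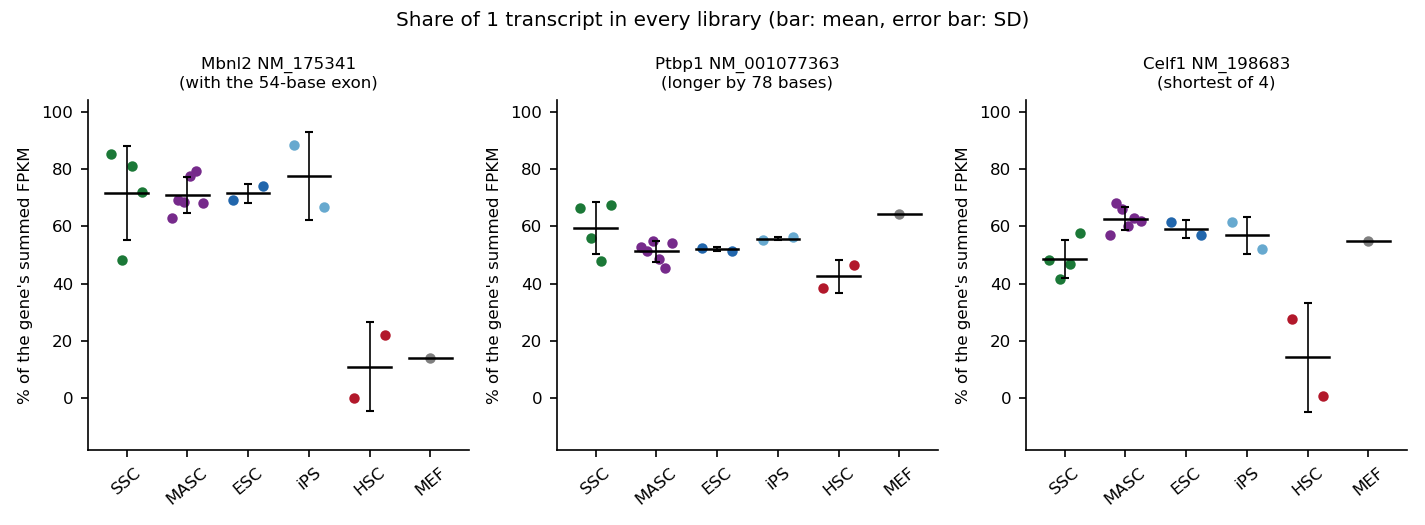
Share of 1 transcript in its gene's summed FPKM in every library, for Mbnl2 (transcript with the 54-base exon), Ptbp1 (longer transcript) and Celf1 (main transcript); points are libraries, bars are means and error bars are SD. The Mbnl2 share is 22.1% or less in the 2 HSC libraries and the MEF sample, and 48.4% or more in the others.

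Other splicing genes of fixed lists were compared between MASC and SSC lines to set the members beside them. Of 42 other regulated splicing factors 12 were higher, 8 lower and 22 not called (median 0.29, beside -0.01 over all genes), where 36.4% of all genes and 52.7% of genes at 1 FPKM or more in 2 or more libraries were called. Read against the latter share, this count does not set the list apart. Rbm47, an epithelial RNA-binding protein, rose most among those called (2.03, SE 0.28, adjusted p = 0.000362), from a mean of 0.772 to 6.36 FPKM, followed by Pcbp1 (1.15); Msi1 (-1.76) and Celf2 (-1.69), the relative of Celf1, fell most. Celf2 measured 4.17 to 7.24 FPKM in SSC and 0.902 to 1.17 FPKM in MASC lines. Of 11 SR proteins, which promote exon recognition, 5 were higher and 1 lower (median 0.49), with Srsf3 (0.71) and Srsf11 (0.54) highest and Srsf9 lower (-1.67). Among 31 core spliceosome genes 8 were higher and 2 lower (median 0.14), with Prpf31 (1.53) and Snrpb2 (1.36) highest, and Sf3b2 (-0.44) and Sf3b3 (-0.37) lower. The same shares of all genes apply to both counts. Between MASC and ESC lines none of these 84 genes passed the test.

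Genes that mark the epithelial state were compared because the Esrp genes act in epithelial cells. Of 16 epithelial genes 11 were higher in MASC than in SSC lines and 1 lower (median 2.36), beside 13.6% higher and 22.8% lower over all genes. Among genes at 1 FPKM or more in 2 or more libraries, 52.7% were called in either direction. Krt8 (6.33) and Cldn4 (5.70) were highest, and the tight junction gene Ocln was lower (-2.21). Cdh1, E-cadherin, picked after its values were seen, went from a mean of 3.59 to 118 FPKM (difference 4.92, adjusted p = 7.0e-06). Of 10 mesenchymal regulators none was higher and 2 were lower, Twist1 (-2.22), which is also among the fibroblast markers, and Zeb1 (-1.21). Not all of the list was low in SSC lines: Epcam, also picked after its values were seen, had a mean of 70.9 FPKM there and 132 FPKM in MASC lines, and Ocln 21.2 and 3.28 FPKM. In HSC against MASC libraries 15 of the 16 epithelial genes were lower, beside 20.4% of all genes. Among genes at 1 FPKM or more in 2 or more libraries, 54.2% were called there in either direction.

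Over the 17 libraries, each member was compared with the 13816 other genes of mean FPKM of at least 1 by Pearson's r of log2(FPKM + 1), as a description of likeness. Esrp1 was most like Cyb561 (0.97), Rpap3 and Zc3hc1, and Esrp2 like Spin2c (0.91), Sh3yl1 and Peg10. Ptbp1 was most like Ddx39 (0.94), Tbrg4 and Nacc1, and Ptbp2 like Skp2 (0.97), Gm16973 and Tnks2. The genes nearest Mbnl1 were Igsf6 (0.95), Cd53 and Hk3, those nearest Mbnl2 Cpped1 (0.79), Pomgnt2 and Atf6, and those nearest Mbnl3 Sos2 (0.85), Zfyve27 and Sft2d2. Celf1 was nearest to Mapk1ip1l (0.99), Trim33 and Larp4, Rbfox2 to Fat1 (0.96), Fscn1 and Itsn1, and Khdrbs3 to Aplp2 (0.97) and Ptk2 (0.96). Among the members themselves, r was 0.90 between Esrp1 and Ptbp2 and between Rbfox2 and Khdrbs3, and -0.86 between Esrp1 and Mbnl1. Libraries of one cell type are not independent points, and all values rest on the same 17 libraries.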

How the data were processed

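RNA of 17 mouse cell samples was sequenced by the authors with TruSeq RNA libraries. They aligned reads to mm9 with TopHat2 2.0.11, left out duplicates and reads mapped to more than 1 place, and used Cufflinks (its version is not given in the sources used here) with upper-quartile and GC normalization. The deposited values are FPKM per RefSeq transcript, an estimate that divides reads among overlapping transcripts, and the deposited coverage gives reads per base. Depth as a read total is not given, and FPKM carries no counts, so no count test was used.

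FPKM were summed over the transcripts of each gene symbol, keeping rows with a plain accession (601 further loci of a transcript left out). Groups came from the labels. Differences are on log2(FPKM + 1), which understates the change of low genes, and were tested with limma 3.58.1 in R 4.3.3 over all 23891 genes with Benjamini-Hochberg adjustment, a threshold of 0.05 and no filter. SSC, MASC and ESC lines shared one fit; HSC and iPS comparisons came from a fit of 16 libraries. Shares of transcripts, correlations and exact permutation tests used Python 3.11.15, scipy 1.17.1 and pandas 2.3.3. Replicates correlated at r of 0.926 to 0.988 and no pair of libraries shared more than 1 identical gene value above 0.

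The members and gene lists were chosen with earlier results of these data known. Named genes are the 10 members, the 3 genes most like each (1 of them is not reported here), the 2 called genes of largest difference in each direction per list, and the cell type markers. Exons, start sites and motifs were read from the mm9 genome with the GENCODE vM1 annotation; 8 of the 30 member transcripts matched a GENCODE transcript within 1 base at each end and in length. Coordinates are 1-based. Alternatives were another pseudocount, a filter on low values, quantile and median-ratio scaling, trended robust variance, a fit over 17 libraries, replicate and strain blocks, the main transcript, further loci, stricter calls and leaving out each library. Leaving out an ESC, iPS or HSC library leaves 1 in that group. Leaving out the 5 libraries of highest fibroblast marker sum does so for ESC and HSC. Calls from those fits take that group's spread from the other groups.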

Additional observations from a re-analysis of the deposited data

How the results depend on the processing

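Of the members' differences, 359 kept direction and side of the threshold across settings other than leaving out a single library, 30 lost and 13 gained a call and 14 changed sign; of those without 1 library, 431 kept both, 12 lost, 3 gained and 10 changed sign. Where no cause is given, the cause was not tested. Between MASC and SSC lines the members called were 5 with the filter and 0 with a log2 difference of at least 1 or of at least 2 at a raw p; genes called were 5512 with a replicate block, 4172 and 1109 at those differences. Mbnl1 was 0.26 under quantile, 0.11 under median-ratio scaling and 0.19 without the 5 libraries of highest fibroblast marker sum; Mbnl2 was 0.20, 0.17, 0.14 with a replicate and 0.035 with a strain block; Rbfox2 was -1.28 by its main transcript. Without 1 library Mbnl1 ran from -0.27 to 0.14, Mbnl2 from -0.43 to 0.36 and Rbfox2 from -0.0021 to 0.089. For ESC against SSC lines 1 member was called under quantile normalization, in the fit over 17 libraries and with the replicate block, and 0 at either stricter difference; genes called were 3372 with the block, 3871 and 1234 at the stricter differences, and 3961 to 6653 (members 1 to 3) without 1 library. For MASC against ESC lines genes called were 2 with the replicate and 5 with the strain block, 45 at a difference of at least 2, 77 without the 5 libraries and 7 to 81 without 1. For HSC against SSC libraries 2612 genes passed at 2; Ptbp1 was -0.30 under quantile, -0.21 with a strain block and -0.33 by its main transcript, Mbnl2 0.084 under median-ratio scaling, 0.10 with the replicate block and -0.96 to 0.27 without 1 library, and Mbnl3 -0.35 without the 5. For HSC against MASC libraries genes called were 4710 with the strain block, 5623 and 2269 at the stricter differences, and 5 members passed at 2. For iPS against SSC lines the members called were 1 under quantile, under median-ratio scaling and by main transcript, 2 with the strain block, 3 without the 5 and 0 to 2 without 1 library; genes called were 4112 and 1209 at the stricter differences and 4104 to 7270 without 1. For iPS against ESC lines they were 10 with the filter, 21 with the replicate block, 20 at 1, 174 without the 5 and 49 to 121 without 1. The share difference of Esrp1 ran from 4.12 to 7.37 points, of Ptbp1 from -12.0 to -5.58 and of Mbnl2 from -8.44 to 3.84 without 1 library.

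The replicate numbers do not pair the samples: residuals of 8 same-numbered pairs correlated at a mean of 0.0493 (from -0.34 to 0.40). The replicate block lost the calls of Celf1 between MASC and SSC lines and of Ptbp1 between ESC and SSC lines. The filter moved the median of all genes to -0.14 (MASC against SSC) and -0.35 (HSC against SSC), and the pseudocount of 0.1 moved the latter to -0.10.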

Other observations

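Transcripts of 16 known splicing targets of these factors were also read, 13 of them with 2 or more transcripts. For 8 of the 13, Fgfr2, Cd44 and Enah among them, the shares of every transcript overlapped between SSC and MASC lines; for Fgfr2 NM_010207 they were 43.6% to 81.1% and 61.8% to 84.9%. For 5 at least 1 transcript did not overlap. The same share over all genes with 2 or more transcripts was not computed, so this count is not read as a result about splicing targets. Pkm and Slk are described from these 5, picked after their values were seen. Pkm makes alternative pyruvate kinase transcripts through a choice of exons that PTB proteins act on. Its transcript NM_001253883 made up 13.1% to 42.6% of the Pkm sum in SSC lines, 5.50% to 11.02% in MASC, 7.42% to 8.74% in ESC and 6.71% to 6.78% in iPS lines, 10.6% to 16.8% in HSC libraries and 19.9% in MEF. The SSC lines lay above all MASC, ESC and iPS lines. For Slk, a kinase whose alternative exon follows the epithelial state, transcript NM_009289 is the longer by 93 bases. It made up 2.44% to 5.26% of the sum in SSC, 7.75% to 22.3% in MASC, 8.27% to 14.7% in ESC and 19.7% to 23.5% in iPS lines, against 1.11% to 1.85% in HSC libraries and 4.27% in MEF. For Slk, too, SSC lines did not overlap with MASC, ESC or iPS lines. The part of the Esrp genes in the Slk shares was not tested.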
